A study of Mus musculus with 4 samples.

Results

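Cytosolic ribosomal protein genes encode the proteins of the 80S ribosome, and their promoters were examined by ATAC-seq in mouse keratinocytes with and without JNK1, the kinase encoded by Mapk8. The genes were autosomal, protein-coding, and carried symbols of Rpl or Rps followed by a number, with Rplp0, Rplp1, Rplp2 and Rpsa added and the Rps6k kinases, pseudogenes and symbols ending in -ps left out. This rule took 82 of 20807 autosomal coding genes. They comprised 43 genes of the large subunit, 30 of the small subunit, 7 paralogues (Rpl3l, Rpl7l1, Rpl10l, Rpl22l1, Rpl36al, Rpl39l and Rps27l), the retrogene Rps27rt and Rps19bp1. Rps19bp1 encodes a protein that binds RPS19 and is not itself a ribosomal protein, so the label holds for its symbol and not for its function. In the 4 peak lists, merged at 1 bp overlap into 82641 regions, 86 regions had a transcription start site (TSS) of these genes no farther than 2 kb away, and 78 of the 82 genes had at least 1.

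The 4 libraries came from epidermal cells (EpCam+, CD49f-hi, labelled keratinocytes from whole skin) of adult female C57BL/6 mice treated on the skin with a cream of 5% imiquimod (Aldara) for 8 days. Of these, 2 came from WT mice and 2 from Mapk8-KO mice, in which, per the methods, Cre driven by the keratin 14 promoter had deleted floxed Mapk8 (K14Cre Mapk8 fl/fl). Controls were littermates. All mice received imiquimod, the Cre acts in basal keratinocytes and other keratin 14-expressing epithelia, and Mapk9, which encodes JNK2, was not targeted. The labels give the 2 libraries of a group as separate samples and do not tie them to named mice. The paper describes the 2 samples of each group as independent.

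The peak lists held 49856 to 69927 peaks, with a median summit pileup (the number of fragments stacked at a peak's highest point) of 26 to 36. Mapk8-KO 2 had the fewest peaks and Mapk8-KO 1 the highest median pileup, so depth differed more within a genotype than between genotypes. Of 7 keratinocyte marker promoters, 5 (WT 2) to 7 (WT 1 and Mapk8-KO 1) were called, while 0 of 7 immune markers (Ptprc and Cd3e among them) were called in any library. Promoters of Dct, Mlana and Pmel (3 of 5 melanocyte markers), of Col1a1 and Pdgfra (2 of 5 fibroblast markers) and of 2 or 3 of 4 endothelial markers were called in every library. Their part in the results was not tested. The Mapk8 promoter, which need not lie in the deleted part and so does not check the labels, had pileups of 96 and 73 in WT and 109 and 90 in Mapk8-KO.

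Ribosomal protein genes are among the most actively transcribed genes of a growing cell, and a ribosome needs nearly all of their products in equal number. Their promoters are typically GC-rich and sharply positioned, and many transcripts begin with a cytosine followed by a run of pyrimidines, the 5′ terminal oligopyrimidine (TOP) tract through which mTOR signalling controls translation. Many of these genes also carry small nucleolar RNAs in their introns. ATAC-seq reports where the transposase Tn5 can reach DNA, and an open promoter is usually nucleosome-free around the start of transcription. It does not report how much RNA is made.

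Promoter sequences of 8 genes are shown because they span the range of the measurements: Rpl22l1, Rpl34 and Rps21 ranked among the 4 highest promoters, Rpl11, Rpl4 and Rpl23 among the 4 lowest, and Rpl12 and Rpl15 had large differences between genotypes. Each run holds 90 bases before and 30 from the RefSeq start onwards (GRCm38.p6, the mm10 assembly), 5′ to 3′ on the gene's strand. Capitals mark the run of C and T with the longest stretch inside the 20 bases on either side of the start, shown in full where it runs past them.
Rpl22l1 (chr3:28805418-28805537, plus strand): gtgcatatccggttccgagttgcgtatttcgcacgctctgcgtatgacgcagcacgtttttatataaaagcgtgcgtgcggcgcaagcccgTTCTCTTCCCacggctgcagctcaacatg
Rpl34 (chr3:130730369-130730488, minus strand): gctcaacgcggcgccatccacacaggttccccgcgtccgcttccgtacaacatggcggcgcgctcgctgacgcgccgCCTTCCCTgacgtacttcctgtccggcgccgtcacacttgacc
Rps21 (chr2:180257289-180257408, plus strand): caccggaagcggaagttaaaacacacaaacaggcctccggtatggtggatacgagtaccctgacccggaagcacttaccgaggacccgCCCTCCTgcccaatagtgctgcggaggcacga
Rpl11 (chr4:136053364-136053483, minus strand): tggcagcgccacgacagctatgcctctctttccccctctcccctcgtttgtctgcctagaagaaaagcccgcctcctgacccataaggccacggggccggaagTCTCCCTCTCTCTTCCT
Rpl4 (chr9:64173297-64173416, plus strand): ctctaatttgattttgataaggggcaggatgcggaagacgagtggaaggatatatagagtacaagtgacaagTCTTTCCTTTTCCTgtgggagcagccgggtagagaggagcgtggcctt
Rpl23 (chr11:97782410-97782529, minus strand): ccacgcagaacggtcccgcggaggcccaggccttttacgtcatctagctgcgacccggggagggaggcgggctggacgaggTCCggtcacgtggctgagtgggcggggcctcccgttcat
Rpl12 (chr2:32961622-32961741, plus strand): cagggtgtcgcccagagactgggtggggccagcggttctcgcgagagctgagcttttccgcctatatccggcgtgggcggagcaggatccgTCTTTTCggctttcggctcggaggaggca
Rpl15 (chr14:18270957-18271076, minus strand): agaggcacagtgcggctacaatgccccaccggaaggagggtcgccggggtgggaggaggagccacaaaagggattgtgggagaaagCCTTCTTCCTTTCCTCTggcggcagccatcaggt

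The length of this run did not sort the promoters by accessibility. Rpl11 and Rpl15 both held a run of 17, one gene among the lowest-ranked and the other near the top. Rpl23 had no stretch longer than 3 inside the 20 bases on either side of its start, and Rps21, one of the highest, had a run of 7.

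Across the 62 of 82 genes with an entry among the RefSeq promoters (250 bases before to 50 after the start), the gap from other coding genes in percentage points was widest for the sequence at the start itself. The letters CTTT stood within 10 bases of the start, on the gene's strand, in 16 of 62 promoters (25.8%), against 7.05% of 15641 other coding promoters. A C stood at the start in 33.9% against 13.9%, and a run of 8 or more C and T near it in 45.2% against 17.8%. Pyrimidines made up 61.1% ± 16.3 (SD over 62 promoters) of the bases within 10 of the start, against 49.0% ± 15.5 in other coding genes. Promoters of other genes that were called in every library gave nearly the same shares as all other genes (6.21% for CTTT, 14.3% for C and 16.7% for the run).

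Motifs of transcription factors were searched as exact letters on both strands of the same 300-base window. The ETS motif CCGGAAGT, bound by factors such as GABPA, stood in 11 of 62 promoters (17.7%), against 5.66% of all other coding promoters and 8.74% of those called in every library. YY1 (AAGATGGC) matched 8.06% against 3.24% and 4.59%, and the cAMP response element (TGACGTCA), bound by CREB and ATF factors, 8.06% against 2.45% and 3.49%. SP1 (GGGCGG) matched 59.7%, between the 49.1% of all other coding promoters and the 67.1% of open ones. NF-Y (CCAAT) matched 29.0% against 38.4% of all other and 39.6% of open coding promoters. The TATA box (TATAAA) matched 6.45%, below the 12.99% of all others and near the 6.78% of open ones. NRF1 (GCGCATGC) matched 4.84%, between 3.81% and 5.74%, and the DREF-like element TGTCGCGA 1.61% (1 promoter) against 0.256% and 0.399%. The median number of CpG dinucleotides was 22, against 15 in all other coding promoters and 22 in open ones. These shares describe letters in a window and were not tested.

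AP-1 is the dimer of JUN and FOS proteins, of which JUN is phosphorylated by JNK1. Its letters TGAGTCA were present in 2 of 62 promoter windows (3.23%), against 4.58% of other coding promoters and 3.63% of the open ones. Within 100 bp of the strongest summit they stood in 1 of 77 ribosomal protein promoters (1.30%) and in 4.59% of 11224 other coding promoters. The plot of sequence features shows the start-site features as the widest gaps in percentage points.

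**Figure D1:**
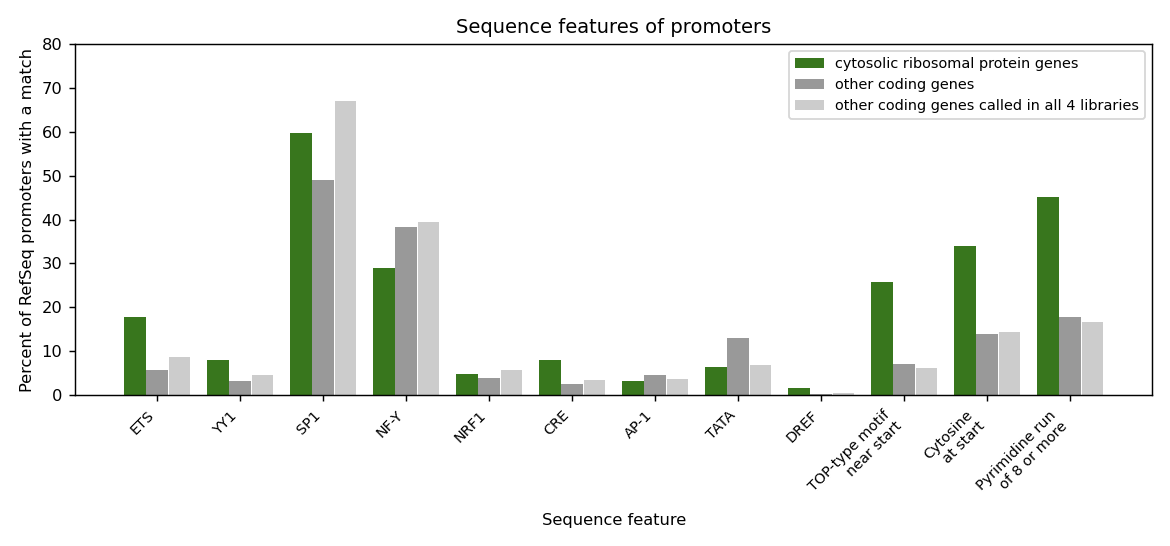
Percent of RefSeq promoters holding each sequence feature, for 62 cytosolic ribosomal protein genes, 15641 other coding genes and the 8764 of those called in every library. The TOP-type motif near the start (25.8% against 7.05%), the cytosine at the start and the pyrimidine run have the widest gaps from other genes in percentage points.

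Nearly every promoter of the group was open in every library. WT 2 had peaks at 77 of the genes and each other library at 78, and 77 (93.9%) were called in all 4. Of 20725 other autosomal coding genes, 11224 (54.2%) had a region called in all 4, and of 78 mitochondrial ribosomal protein genes, 71 (91.0%). By subunit, 42 of 43 large-subunit and 30 of 30 small-subunit genes were called in every library, and 4 of 7 paralogues. Rpl18 was counted through a region shared with Sphk2, with summits at -2838 to -3273 bp from the RefSeq start of Rpl18. A second region, over another annotated TSS of Rpl18, had pileups of 31 (WT 1), 22 (WT 2) and 31 (Mapk8-KO 1). It had no peak called in Mapk8-KO 2.

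The exceptions were few. Rpl36, a large-subunit gene, had no peak called in WT 2, and pileups of 36 (WT 1), 32 (Mapk8-KO 1) and 24 (Mapk8-KO 2). Its region was also the narrowest of the group, at 355 bp. Rpl3l, the paralogue of Rpl3 known from striated muscle, Rpl10l and Rpl39l, both known from testis, and the retrogene Rps27rt had no region in any library. A peak list holds only positions past its threshold, so an absent peak sets no level. The paralogues that were open were Rpl7l1, Rpl22l1, Rpl36al and Rps27l.

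Accessibility within the group ranged over nearly the whole scale. Fold enrichment, the summit pileup over the local background as given by the peak caller, was ranked within each library as a percentile among the 40159 regions called in all 4. The median percentile of the 77 promoters was 57.8 (WT 1), 65.7 (WT 2), 63.0 (Mapk8-KO 1) and 66.1 (Mapk8-KO 2). Other coding promoters had medians of 58.1, 61.8, 61.6 and 67.6 in the same order. The ribosomal protein promoters thus had the higher median in WT 2 and Mapk8-KO 1 and the lower in WT 1 and Mapk8-KO 2. Mitochondrial ribosomal protein promoters had medians of 68.7, 70.0, 75.1 and 72.2, higher than the cytosolic ones in each library.

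The promoters were spread about as widely as those of other coding genes. Of the 77, 5 (6.49%) had a mean percentile under 10, 26 (33.8%) under 50 and 63 (81.8%) under 90, against 4.04%, 38.0% and 86.8% of other coding promoters. The SD of a promoter's percentile over the 4 libraries had a median of 8.97 points, so neighbours in the order seldom differed beyond their spread, while the top and the bottom did. All 5 promoters under 10 belonged to the large subunit (Rpl17, Rpl23, Rpl4, Rpl11 and Rpl13), and the median of the mean percentiles was 58.8 for the 42 large-subunit and 64.6 for the 30 small-subunit promoters. Summit pileup of the 77 promoters agreed between libraries, with Spearman's rho of 0.925 to 0.959 across genes, which are not independent replicates and share annotation and base composition.

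**Figure D2:**
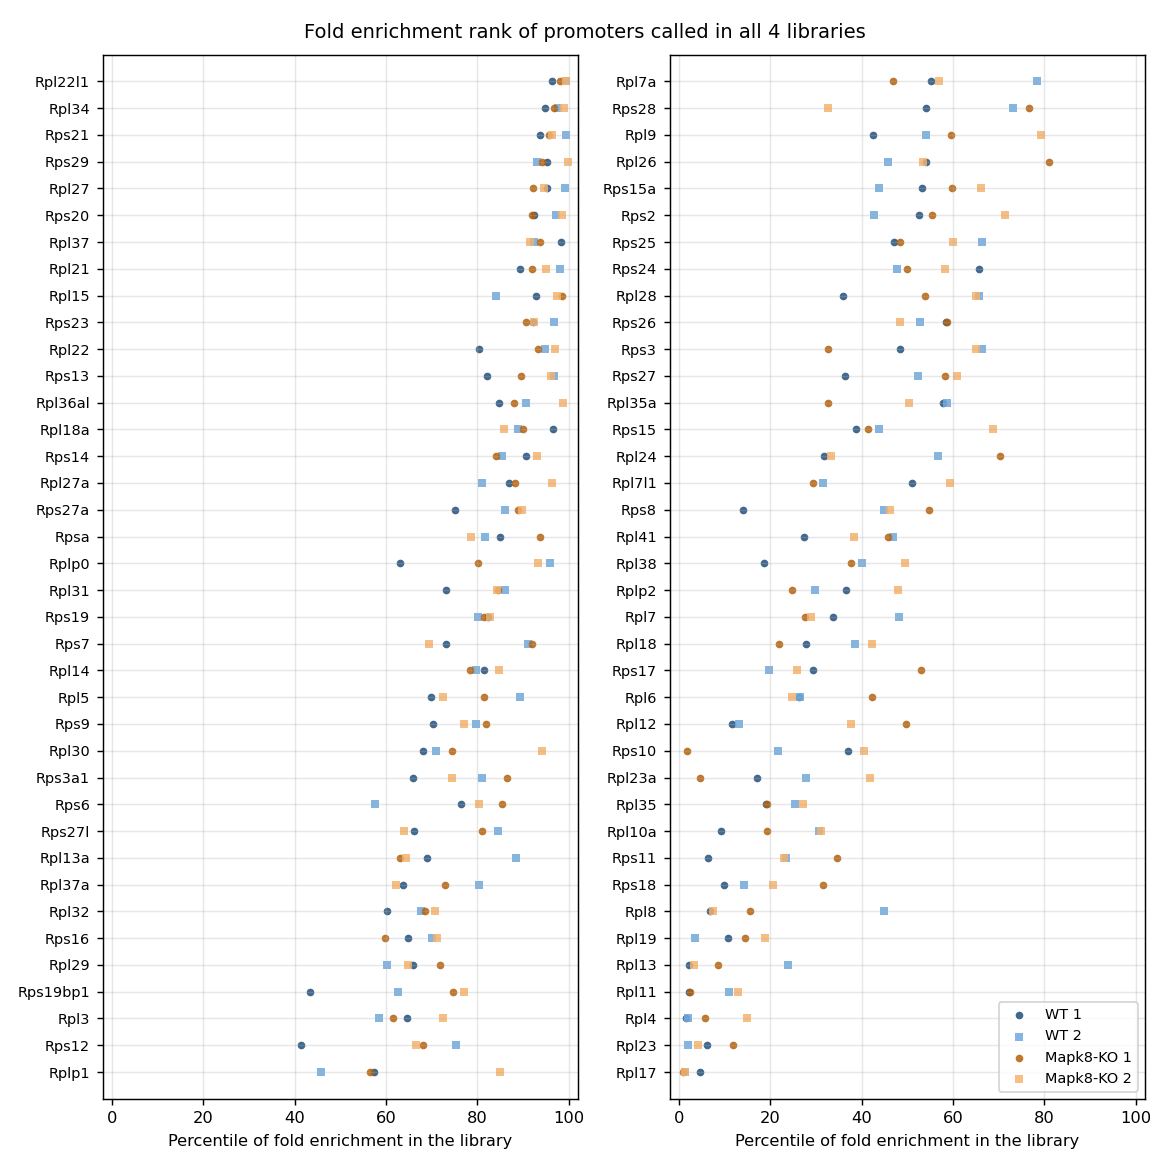
Percentile of fold enrichment (0 to 100, within each library) for 76 of the 77 promoters called in all 4 libraries, ordered by their mean, with 1 point per library. Rpl22l1, Rpl34, Rps21 and Rps29 stay above 93 in every library, and Rpl17 stays below 5.

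The promoters with the highest mean percentile were Rpl22l1, Rpl34, Rps21 and Rps29. Rpl22l1 encodes a paralogue of RPL22, and its region (chr3:28805087-28806057) had summit pileups of 163 and 122 in WT and 208 and 130 in Mapk8-KO, with a mean percentile of 98.3. It was therefore a paralogue, and not a core ribosomal protein gene, that had the highest mean rank. Rpl34 (chr3:130729542-130730729) had pileups of 146, 104, 178 and 107, and Rps21 (chr2:180256830-180257632) of 131, 121, 158 and 93, for WT 1, WT 2, Mapk8-KO 1 and Mapk8-KO 2. Centred for depth, the genotypes overlapped at Rps21 and not at Rpl34. Rps29 is described with the genotype comparison.

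The lowest ranks arose in different ways. Rpl23 (chr11:97781994-97782699), a large-subunit gene, had pileups of 14, 9, 19 and 10 (WT 1, WT 2, Mapk8-KO 1, Mapk8-KO 2) and a local background at the lowest value of each library (2.13, 1.53, 2.52 and 1.57 fragments). Rpl4, a large-subunit gene (chr9:64172727-64173600), was as low, at 11, 9, 16 and 13. Few fragments were stacked at either gene in any library. Rpl11 (chr4:136053159-136053542) encodes a protein that with RPL5 restrains MDM2 when ribosome assembly fails, and it had pileups of 22, 18, 22 and 20. RPL5 and RPL11 act in 1 complex, but Rpl5 had pileups of 52, 50, 60 and 35 and a mean percentile of 78.2 against 7.17 for Rpl11.

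Rpl17 had a low fold with a high background. The summit pileup was 50 and 29 in WT and 39 and 30 in Mapk8-KO, below the median of the group in each library (52, 38, 60 and 36). Its local background was 10.2, 6.97, 10.05 and 7.23 fragments, against group medians of 4.33, 2.86, 4.49 and 2.91, and the fold enrichment was 4.55 at most. Rank by fold and rank by pileup were therefore related but not the same, with a Spearman's rho of 0.779 across the 77 promoters.

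Several promoters were shared with another gene, which limits what a region says of 1 gene. The region held a TSS of another coding gene at 15 of 78 genes, and the strongest summit lay inside another annotated gene at 19 of 78. At Rpl4 the summit lay at -279, -518 and -480 bp from the RefSeq start in WT 1, Mapk8-KO 1 and Mapk8-KO 2 (negative is upstream), and 13 bp downstream in WT 2. The strongest summit lay inside Zwilch, whose product serves the spindle checkpoint. Rpl15 shared its region with Nkiras1, Rpl12 with Lrsam1, Rpl7 with Rdh10, Rpl18 with Sphk2, Rps27a with Clhc1 and Rpl36al with Mgat2.

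Genes named before for their roles covered the range between. Rplp0, Rplp1 and Rplp2 encode the acidic stalk that recruits elongation factors to the ribosome, and their mean percentiles were 83.1, 61.2 and 34.8. Rplp0 had pileups of 61, 55, 73 and 56 (WT 1, WT 2, Mapk8-KO 1, Mapk8-KO 2), and Rplp2 of 46, 29, 44 and 35. The stalk genes thus did not share a level. Rps3, a protein of the mRNA entry site, had pileups of 30, 25, 26 and 25. Rpsa, the laminin receptor precursor and a small-subunit protein, had 72, 49, 87 and 38.

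The remaining fixed genes stood near or above the middle. Rps19 and Rps14, small-subunit genes whose loss or reduced dosage is linked to human anaemias, had mean percentiles of 81.7 and 88.3. Rps19 was the steadiest promoter of the group, with percentiles of 82.3, 80.2, 81.5 and 82.9. Rps27a, which encodes a fusion of ubiquitin and a ribosomal protein, had pileups of 128, 98, 185 and 102, and Rpl3, at the peptidyl transferase centre, of 36, 28, 42 and 31. Rpl13a, known for its part in the interferon-gamma-activated inhibitor of translation, had a mean percentile of 71.2. Among paralogues, Rpl36al had pileups of 85, 57, 102 and 74, Rps27l, a p53 target, of 35, 33, 49 and 28, and Rpl7l1 of 28, 17, 25 and 22.

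Introns with small nucleolar or other small RNAs did not separate the promoters. The 30 host genes had a median of their mean percentiles of 63.5, and the 47 others called in all 4 libraries of 59.1. Yet 4 of the 5 promoters under a mean percentile of 10 were hosts, Rpl11 being the exception. GC content of the region had a Spearman's rho of 0.0823 with mean percentile across the 77 promoters, which share libraries and base composition.

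Ribosomal protein genes have many processed pseudogenes, so reads near their starts may not map to 1 place. Of the 31-base words within 150 bp of the strongest summit, none recurred elsewhere in the genome at 30 of 78 genes, and over 10% recurred at 16. For mitochondrial ribosomal protein genes, none recurred at 67 of 78. The share of recurring words had a Spearman's rho of 0.0582 with mean percentile across the 77 promoters, and the number of pseudogenes named after the gene one of -0.0279. The highest share was 55.7%, at Rps29, followed by 33.2% at Rplp1 and 30.3% at Rpl37a. The methods state that reads with several alignments were removed. The share of recurring words had a Spearman's rho of 0.0269 with mean pileup, and the part of the removal in these values was not tested.

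Peaks at these promoters had a lower median width than those at other coding promoters in each library. The median summed width was 691 and 555 bp in WT and 691 and 600 bp in Mapk8-KO, against 758 and 645 bp and 755 and 645 bp at other coding promoters. Replicate number 1 was wider than number 2 in both genotypes, and its lists also held more peaks. The mean of the Mapk8-KO medians was 22.5 bp above that of WT, less than the SD between replicates of 81.8 bp, and its sign changed when WT 2 (-45.5 bp) or Mapk8-KO 1 (-23 bp) was left out. The widest regions were Rpl7 at 2128 bp, Rpl10a at 1383 and Rpl15 at 1321, and after Rpl36 the narrowest were Rpl23a at 374 and Rpl11 at 384. At Rpl10a the peak was 1316 bp wide in WT 1 and 432 to 555 bp in the other libraries. Wider regions ranked higher across the 77 promoters, with a Spearman's rho of 0.413.

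Summits lay close to the start and mostly upstream of it. Among the 58 genes with a RefSeq promoter and a region called in all 4 libraries, the summit was upstream of the start in 81.0%, 77.6%, 79.3% and 81.0% (WT 1, WT 2, Mapk8-KO 1, Mapk8-KO 2), against 63.7% to 65.5% of 8764 other coding promoters. It was within 100 bp of the start in 65.5%, 74.1%, 70.7% and 63.8%, against 50.1% to 52.2%. The median position was -53, -38.5, -53 and -49.5 bp, negative being upstream, and -45 or -46 bp at other coding promoters. The subunits were not alike in this. Summits lay upstream in 86.4% to 95.5% of 22 small-subunit and 67.7% to 77.4% of 31 large-subunit promoters. They lay within 100 bp in 54.5% to 72.7% and 67.7% to 77.4%. The 31 include Rpl18, with summits at -2838 to -3273 bp in the region shared with Sphk2. Mitochondrial ribosomal protein promoters had 58.7% to 68.3% upstream and 57.1% to 66.7% within 100 bp. These shares are a description without a test. Beside these regions, 8 further regions were found in the 2 kb around a TSS of these genes, among them regions called in every library near Rpl13, Rpl41 and Rps26.

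The comparison of genotypes asked whether loss of JNK1 changed the accessibility of these promoters. The pileup was put on a log2 scale, centred on each library's median over the 40159 regions called in all 4, and entered into limma (variance trend, p adjusted by Benjamini-Hochberg over all of them). Of 77 ribosomal protein promoters, 1 (Rps29) was higher in Mapk8-KO at an adjusted p under 0.05, where 0.11% of all regions were called higher. By the same limma test 0 were lower, where 0.496% of all regions were. At an unadjusted p under 0.05, 6 of 77 (7.79%) passed, against 11.3% of all regions and 9.65% of other coding promoters. With limma on log2 fold enrichment in place of pileup, 0 of 77 were called and 3 passed the unadjusted threshold. In that setting 0 of all 40159 regions were called and 2731 passed the unadjusted threshold.

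Rps29, a small-subunit gene, was the sole call, and it came from 1 library. Its summit pileup was 179 and 115 in WT and 195 and 399 in Mapk8-KO. Centred for depth, these were 1.87, 1.76, 1.85 and 3.73 on the log2 scale, so Mapk8-KO 1 lay between the WT libraries and Mapk8-KO 2 alone was high. The log2 difference (Mapk8-KO minus WT) was 0.98 with a standard error of 0.19 and an adjusted p of 0.000501 (limma). Without Mapk8-KO 2 it was 0.04, with an adjusted p of 0.996 (limma). Leaving out either WT library, or using the GC correction, other centring, quantile normalization, log2 fold or no variance trend also took the adjusted p above 0.05.

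The summit in that region was not at the Rps29 start. It lay at -135 to -137 bp from the TSS (upstream) and 26 to 28 bp inside Rn7s1, a gene for the 7SL RNA of the signal recognition particle (chr12:69159295-69159594, plus strand), in every library. Rn7s1 is transcribed by RNA polymerase III and has many near-copies in the genome, and 55.7% of the 31-base words around the summit recurred elsewhere. The region's peak was also narrower in Mapk8-KO 2 (654 bp) than in the others (861 to 873 bp). The part of repeated sequence in the value of Mapk8-KO 2 was not tested.

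The other positive differences did not pass the test. Rpl12, a protein of the stalk base, had pileups of 19 and 13 in WT and 34 and 21 in Mapk8-KO. The genotypes did not overlap after centring, and the log2 difference was 0.79 with an adjusted p of 0.265 (limma). Rpl15, a large-subunit gene, had pileups of 143 and 80 in WT and 204 and 119 in Mapk8-KO, a log2 difference of 0.56 with a standard error of 0.17, and an adjusted p of 0.0919 (limma). With the replicate number as a block its adjusted p was 0.0323 (limma). With 1 library left out its log2 difference ranged from 0.41 (without WT 2) to 0.72 (without WT 1). Rpl4 had a log2 difference of 0.56 and Rplp1 of 0.50 (adjusted p of 0.56 and 0.49, limma). For Rpl4 the difference was 0.28 without Mapk8-KO 2 and 0.83 without Mapk8-KO 1. At Rplp1 the pileup was 33 and 20 in WT and 34 and 38 in Mapk8-KO, so Mapk8-KO 2 again carried the difference, which without that library was 0.00050 on the log2 scale.

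Rps6 and Rpl30 had unadjusted p values under 0.05. Rps6 was on the fixed list, and Rpl30 was named after its values were seen. Rps6, the substrate of S6 kinase, had pileups of 75 and 40 in WT and 104 and 54 in Mapk8-KO, a log2 difference of 0.47 (0.28 without WT 2) and an adjusted p of 0.32 (limma). Rpl30, a large-subunit gene, had 90 and 57 against 112 and 87. Both were higher in each Mapk8-KO library after centring. Without Mapk8-KO 1, limma called 5 promoters, among them Rpl15, Rpl30, Rplp1 and Rps29, with Mapk8-KO 2 as the sole knockout library. That fit also called 630 higher and 1087 lower of all 40159 regions.

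The negative differences were small beside their errors. Rps10, a small-subunit gene, had pileups of 24 and 15 in WT and 13 and 18 in Mapk8-KO, a log2 difference of -0.29 with a standard error of 0.33 (adjusted p of 0.789, limma). Its 2 knockout libraries lay on opposite sides of both WT libraries. Rpl35a (-0.18), Rpl13a (-0.18), Rps14 (-0.16) and Rpl7 (-0.14) followed, with adjusted p values of 0.776 to 0.866 (limma). Rpl35a is another large-subunit gene linked to Diamond-Blackfan anaemia. At Rps14 the pileups were 77 and 45 in WT and 69 and 39 in Mapk8-KO, and at Rpl7, 97 and 77 against 101 and 59. With 1 library left out, the log2 difference ranged from -0.29 to -0.04 for Rps14 and from -0.24 to -0.05 for Rpl7. Without Mapk8-KO 1 the sign turned for Rps10 (0.37), Rpl35a (0.051) and Rpl13a (0.024), and with log2 fold for Rps14 (0.037).

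**Figure D3:**
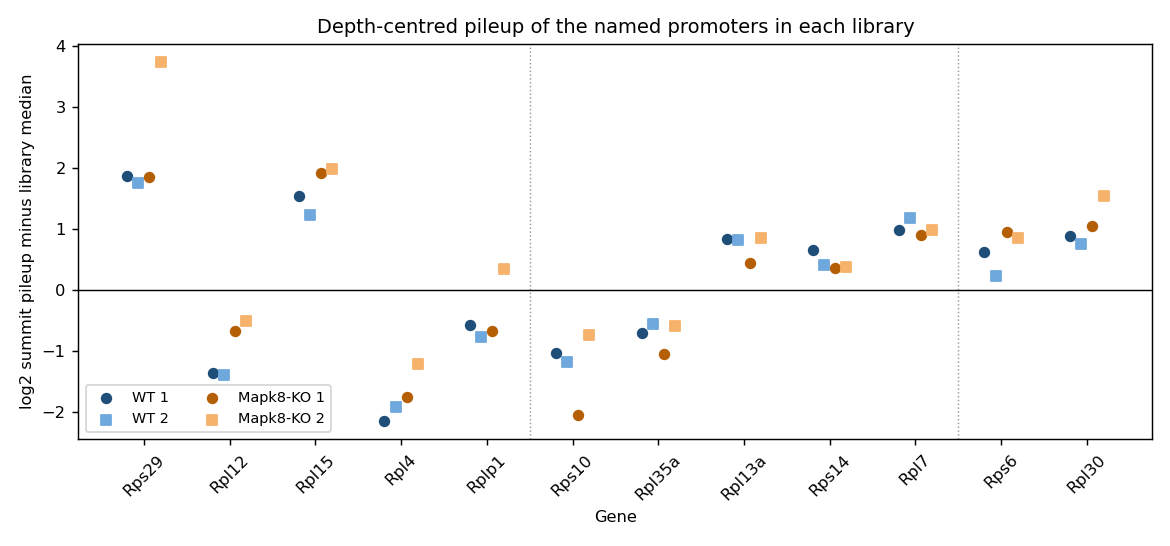
Summit pileup of the named promoters in each library, as log2 minus the library's median over 40159 regions, with 1 point per library. Left of the first dotted line are the 5 most positive differences, then the 5 most negative, then Rps6 and Rpl30, which had an unadjusted p under 0.05. At Rps29 and Rplp1 Mapk8-KO 2 stands alone above 3 libraries.

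With all 4 libraries, the median difference between genotypes was close to that of other promoters. The median log2 difference (Mapk8-KO minus WT) was 0.15 over the 77 and 0.16 over 11224 other coding promoters, against 0.05 over all 40159 regions, and 57 of 77 (74.0%) lay above 0 against 78.0% of other coding promoters. Without WT 1 the medians were 0.05 for the 77 and 0.14 for other coding promoters, and without WT 2 they were 0.22 and 0.17. After centring on promoters in place of all regions the medians were 0.01 and 0.03, and with a GC correction 0.03 and 0.03. The median of the large subunit was 0.12 and of the small subunit 0.17. Mapk8-KO 2 had the highest centred promoter pileup of the libraries, both in ribosomal protein genes (0.26, against 0.09 to 0.16) and in other coding genes (0.52, against 0.24 to 0.33).

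Counts of promoters whose genotypes did not overlap gave the same picture. After centring, 26 of 77 (33.8%) were higher in both Mapk8-KO libraries than in both WT libraries, where 24.6% of all regions and 36.3% of other coding promoters were. In the other direction 3 of 77 (3.90%), namely Rpl37a, Rpl7 and Rps14, were lower, where 16.9% of all regions and 5.52% of other coding promoters were. The members' shares lay closer to those of other promoters than to those of all regions.

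**Figure D4:**
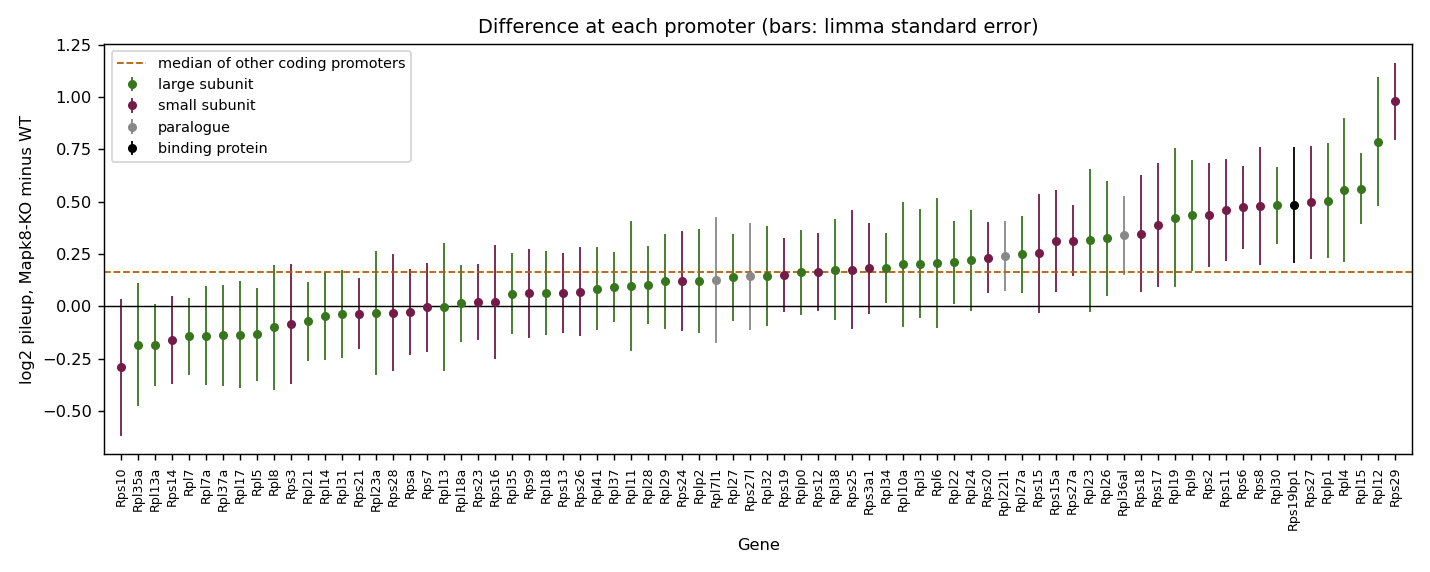
Difference in log2 summit pileup (Mapk8-KO minus WT) at 76 of the 77 promoters, ordered by size, with the limma standard error of 2 against 2 libraries. Most points lie above 0, around the dashed median of other coding promoters (0.16), and Rps29 stands highest at 0.98.

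By rank within the library, 2 of 77 promoters (2.60%) were at least 10 percentile points higher in both Mapk8-KO libraries than in both WT libraries, where 4.07% of all regions were. These were Rpl12, with percentiles of 11.5 and 13.1 in WT and 49.8 and 37.7 in Mapk8-KO, and Rps19bp1, with 43.4 and 62.7 in WT and 74.7 and 77.1 in Mapk8-KO. Rps19bp1 had pileups of 26, 24, 41 and 29 and a log2 difference of 0.49 (adjusted p of 0.513, limma). By this count 0 of 77 were lower, where 4.65% of all regions were. The median change in percentile was 3.39 points over the 77 and 2.89 over other coding promoters, where the SD between replicates was 4.26 points. With 1 library left out it ranged from 0.31 (without WT 1) to 5.93 (without WT 2) over the 77, and ranked among coding promoters alone it was 1.12. With 2 libraries per genotype an exact permutation test over libraries cannot give a p below 0.333, so no test was made of these medians.

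Genes of the same pathway were examined from fixed lists. Ribosomal proteins outside the symbol or chromosome rule (among them Fau, Rack1, Rpl10, Rpl36a, Rpl39 and Rps4x) were all called in every library, 7 of 7, with 0 higher and 0 lower by limma and 0 at an unadjusted p under 0.05. Of 14 translation factors and like genes 13 were called in all 4 libraries, with a median percentile of 81.4 in WT 1 and 91.1 in Mapk8-KO 2. Eef2, the elongation factor of translocation, was the one missing in Mapk8-KO 2, with pileups of 19, 11 and 25 in the others. None of these genes passed limma at an adjusted p of 0.05, and 3 of 13 had an unadjusted p under 0.05, Eif3h with the largest log2 difference (0.51, adjusted p of 0.198). Of all regions, 0.11% were called higher, 0.496% lower, and 11.3% had an unadjusted p under 0.05 (9.65% of other coding promoters).

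Ribosome biogenesis genes also gave no call. Of 20, 19 were called in every library and 0 passed limma in either direction (1 unadjusted, Nop58 at a log2 difference of 0.54). Ubtf, the RNA polymerase I factor, had a peak in Mapk8-KO 2 alone. Mitochondrial ribosomal protein genes had 0 calls by limma in either direction among 71 and 5 with an unadjusted p under 0.05. Their median log2 difference was 0.18, next to 0.15 for the cytosolic genes. At the unadjusted threshold the shares beside both lists were 11.3% of all regions and 9.65% of other coding promoters. The cytosolic promoters had lower median percentiles than the translation factors, the biogenesis genes and the mitochondrial ribosomal protein genes in each library, as the plot of gene sets shows, which is a description without a test.

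**Figure D5:**
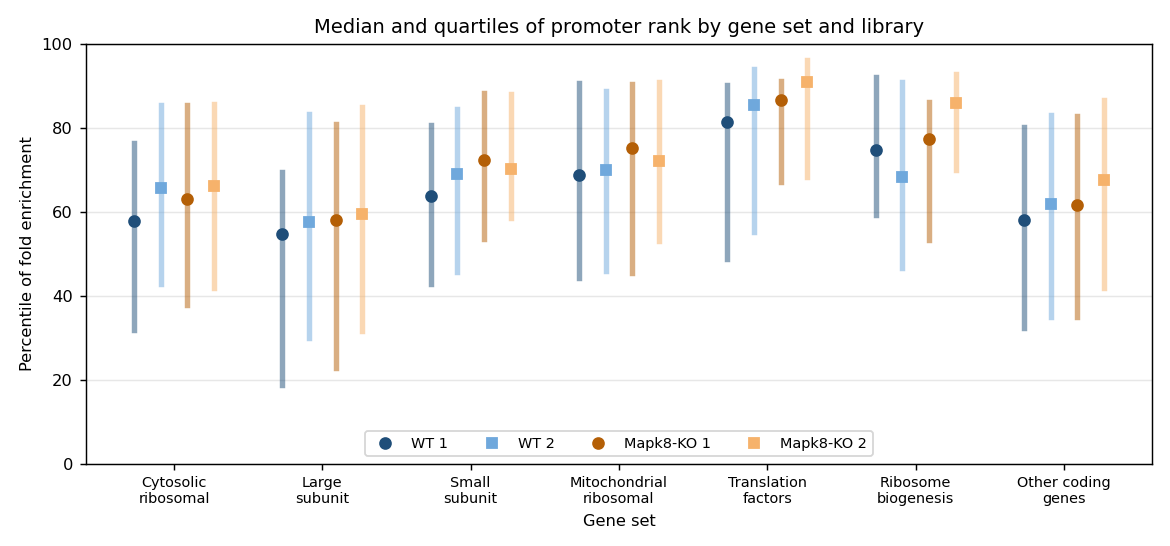
Median (points) and lower to upper quartile (bars) of the percentile of fold enrichment for each gene set in each library, over genes called in all 4. The cytosolic set lies near other coding genes (57.8 against 58.1 in WT 1), and translation factors lie highest (81.4 in WT 1).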

How the data were processed

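Open chromatin was measured by ATAC-seq in 2 WT and 2 Mapk8-KO libraries. Per the methods, the authors mapped reads to mm10 with Bowtie2 (the labels' tool list names STAR), removed multi-mapped reads and called peaks per library with MACS2 without a control. No Tn5 shift is stated. The deposited lists give a fold enrichment ratio, −log10 p and −log10 q values, a score and the summit. Summit pileup was solved from the authors' fold and −log10 p and was whole within 0.05 for at least 99.996% of peaks. This recovery and limma were run on simulated data. For limma the simulated libraries varied by counting error and a small added spread. The spread seen between these replicates was not used, so limma under that spread was not tested.

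Peaks were merged at 1 bp. Genes followed GENCODE vM21 basic, and promoter sequences RefSeq (GRCm38.p6). limma 3.58.1 (R 4.3.3) tested 40159 regions, in place of the study's DESeq2 on read counts, which were not used here. Across regions, the differences between number 1 and number 2 did not go together in the 2 genotypes (r = 0.0392), so numbers were not taken as pairs. This correlation cannot show a difference in depth common to all regions, and number 1 had more peaks in both genotypes. Whether same-numbered libraries shared a batch was not tested. The members and lists were chosen with earlier results of these data known. Named genes were the 4 highest and 4 lowest ranked, the 5 most positive and 5 most negative differences, the 3 widest and 3 narrowest regions, those not called everywhere, paralogues, Rps19bp1 and 14 fixed genes. Rpl30 was named in addition, for its unadjusted p under 0.05 (limma). p-values measure the spread between libraries, which the paper describes as independent samples and which may in part be technical. Alternatives covered scaling, thresholds, distances and left-out libraries. Values of a few genes are not reported here.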

Additional observations from a re-analysis of the deposited data

How the results depend on the processing

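The number of promoters called by limma was 1 as reported, 2 with the replicate number as a block, and 0 with log2 fold enrichment, GC correction, no variance trend, promoter centring, quantile normalization or centring on the median log2 ratio (the last chosen after seeing the data). It ranged from 0 to 5 when 1 library was left out, 5 being without Mapk8-KO replicate 1, where 630 regions were called higher and 1087 lower. The median log2 difference of 0.15 was 0.012 after promoter centring and 0.031 with GC correction, and ranged from 0.052 (without WT replicate 1) to 0.265 (without Mapk8-KO replicate 1). The median width difference of 22.5 bp ranged from -45.5 to 90.5 bp when 1 library was left out. The log2 difference ranged from -0.95 to 0.37 for Rps10, -0.42 to 0.051 for Rpl35a and -0.39 to 0.024 for Rpl13a when 1 library was left out, and turned to 0.037 for Rps14 with log2 fold. In each fit with 1 library left out, 1 genotype had a sole library, so the 2 libraries of the other genotype alone gave the spread. The cause of these changes was not tested. The count of 77 called everywhere was 66 after lists were cut to equal length, 59 when a peak had to cover 50% of its region, and 77 or 78 otherwise, apart from 72 without paralogues and Rps19bp1. Over all 40159 regions limma called 44 higher and 199 lower as reported, 102 and 284 with the block, 0 and 10 with promoter centring, and 0 and 0 with log2 fold or no variance trend. The block changed the call of Rpl15 and of no other named promoter. Depth limits the lowest promoters, where a pileup of 9 to 20 fragments carries counting error of its own.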

Other observations

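Several facts limit these values. There were 2 libraries per genotype. Summit pileup is 1 position per peak and leaves out fragments elsewhere in the region, and a peak list gives no value below its threshold. The 4 X-linked genes of the family and pseudogenes were left out by the rule, and 20 of 82 genes had no promoter entry in the RefSeq table. Shared regions cannot be divided between 2 genes.

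With no control library, the background under each fold enrichment was estimated from the same library. At Rps29 the background was 14.9 fragments in Mapk8-KO 2 and 7.01 to 11.5 in the others, and the fold was 25.2 against 14.5 to 15.9.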
